A study of Homo sapiens with 8 samples.

Results

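The genes described here encode the cytochromes P450 and the conjugation enzymes of drug, hormone and lipid metabolism, measured in HepG2, a human liver tumour cell line. They were chosen by symbol: every row of the CYP, UGT1, UGT2 and SULT families and of the GST classes A, M, P, T, K, O and Z, leaving out the sterol synthesis gene CYP51A1, pseudogenes, antisense genes and a read-through row. This gave 103 genes of 24462, and 36 of them were detected, meaning 10 or more counts in 4 or more libraries. The study compared 4 libraries labelled mock with 4 from cells with EDN1 overexpression, both groups in culture with no further treatment. The EDN1 product is processed to endothelin-1, a secreted peptide that constricts blood vessels. The labels do not say how EDN1 was introduced, what the mock cells carried, or whether replicate libraries stem from separate cultures, and p-values therefore cover the spread among these libraries only.

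Cytochromes P450 are haem enzymes that insert an oxygen atom into their substrates, with electrons passed on by P450 reductase in the endoplasmic reticulum or by ferredoxin in mitochondria. UGT enzymes then add glucuronic acid, SULT enzymes add sulphate and GST enzymes add glutathione, which makes the products more soluble and easier to export. Adult liver is the main site of these reactions, and HepG2 cells are known for low levels of many of the drug-oxidising P450s.

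EDN1 was at 2.26, 1.11, 1.04 and 1.38 CPM (read count scaled to library size) in mock 1 to 4 and at 228, 259, 418 and 549 CPM in EDN1 1 to 4. Its log2 fold change was 7.92 (SE 0.41, adjusted p = 1.68e-05 by Benjamini-Hochberg, edgeR's quasi-likelihood test), so each library matched its label. It was the 1 gene called of 12577 tested. Total counts ran from 8409173 to 14932385 per library, and 3 counts, the limit that a count of 0 allows for counting error only, corresponded to 0.201 to 0.357 CPM. All 12 hepatocyte and HepG2 markers looked at were detected, and AFP, at mean levels of 1028 CPM in mock and 595 CPM in the EDN1 libraries, was the 1 of them under an unadjusted 0.05 in edgeR. No endothelial marker of 5 was detected, while 2 of 7 fibroblast, 3 of 7 blood and 3 of 5 biliary markers were, with LUM, THY1, KDR, CD3E and CFTR at 0. In a clustering on all genes tested, mock 4, EDN1 3 and EDN1 4 stood apart from the other 5 libraries. They are called the second library set here, the other 5 the first set, and values within each set are given beside part of the results. Mock 4 is the only mock library of the second set, so every fold change within that set rests on it. Fold changes within a set are given as estimates without SE.

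None of the 34 members that could be tested was called at the threshold of 0.05 on Benjamini-Hochberg adjusted p, and their smallest adjusted p in edgeR was 0.9999. Of all genes tested, 0.00795% were called by edgeR, which was EDN1 alone. DESeq2, which called 0.015% of its genes, and limma voom called 0 members as well. UGT2B10, with lower values in the EDN1 libraries, and GSTO2, with higher ones, were the 2 members under 0.05 on the unadjusted p. Over all genes tested 2.85% were, 0.827% with lower and 2.03% with higher values. Log2 fold changes were negative for 19 members and positive for 15, with a median of -0.04, beside 49.7% negative, 50.3% positive and a median of 0.0010 over all genes tested. They ran from -0.69 to 0.86, with 4 members at -0.5 or lower and 2 at 0.5 or higher, against 3.05% and 3.82% of all genes tested. For 20 of the 34 members the 95% interval lay within 2-fold in either direction, against 79.4% of all genes tested, so for the other 14 a 2-fold difference in at least 1 direction lay within the interval.

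By family, the 5 UGT rows tested all had negative log2 fold changes, with a median of -0.43. The 10 GSTs had 7 positive and 3 negative values with a median of 0.11, the 4 SULTs 3 positive and 1 negative with a median of 0.12, and the 15 P450s 5 positive and 10 negative with a median of -0.06. These are descriptions of the lists and none of them was tested as a list. In a whole culture, fewer cells that express a gene and less RNA of it per cell cannot be told apart.

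**Figure D1:**
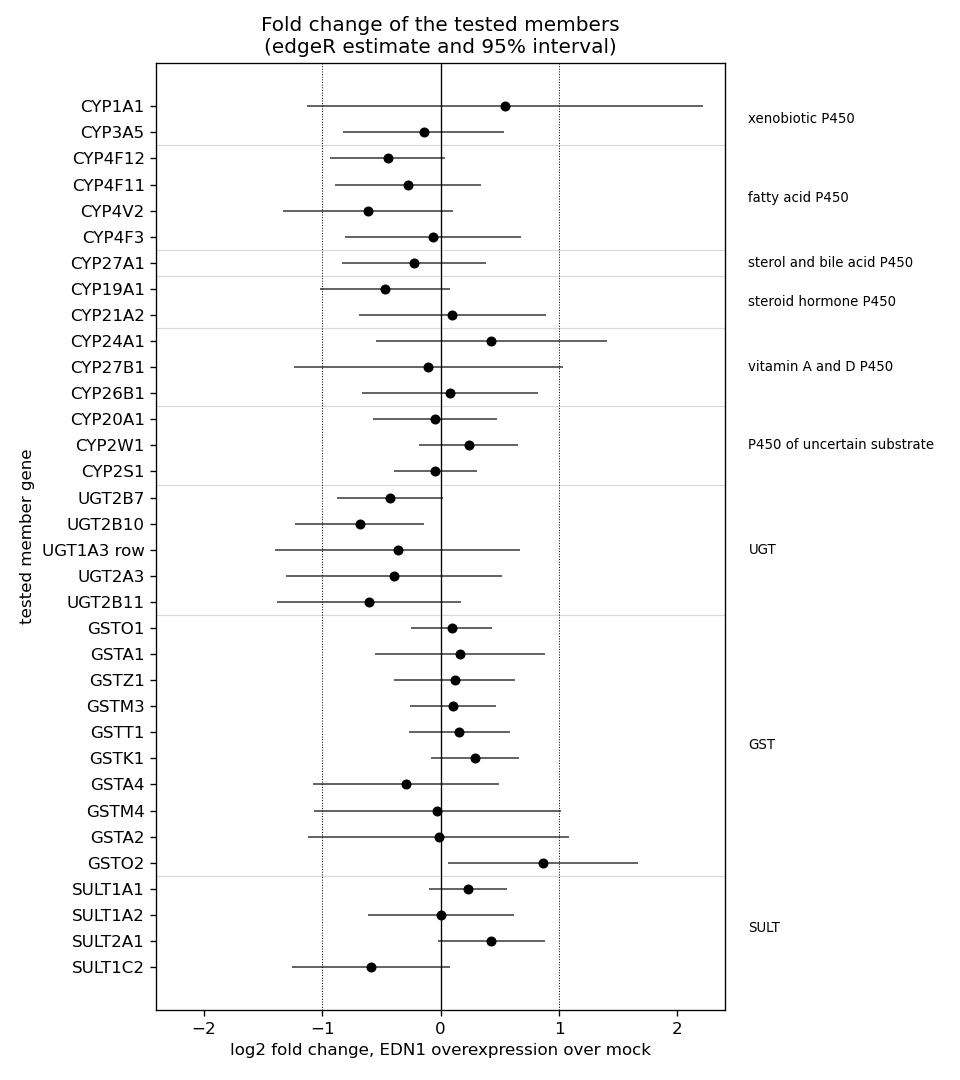
Log2 fold change of EDN1 overexpression over mock (horizontal axis) for the 34 tested members, grouped by role, with points for edgeR's estimate, bars for the 95% interval and dotted lines at 2-fold. Of the 34 intervals, 2 exclude 0: UGT2B10, whose estimate of -0.69 is the lowest, and GSTO2, whose estimate of 0.86 is the highest.

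The UGT2 genes detected in HepG2 lie close together on chromosome 4, and the stretches just upstream of 3 of them are shown because these neighbours are close relatives in sequence as well as in position. The letters are the 190 bases before each transcript start, from RefSeq on GRCh38.p14. Capitals mark a run of 13 bases, ATAAACATAAAAG (reverse complement CTTTTATGTTTAT), which is the longest that the 3 stretches share. UGT2B7 lies at chr4:69096284-69096473 on the plus strand, UGT2B10 at chr4:68815804-68815993 on the plus strand and UGT2B11 at chr4:69214749-69214938 on the minus strand.
UGT2B7: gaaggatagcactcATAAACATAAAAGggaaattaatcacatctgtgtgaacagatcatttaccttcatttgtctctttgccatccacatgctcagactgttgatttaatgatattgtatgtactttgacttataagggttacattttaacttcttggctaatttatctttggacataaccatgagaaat
UGT2B10: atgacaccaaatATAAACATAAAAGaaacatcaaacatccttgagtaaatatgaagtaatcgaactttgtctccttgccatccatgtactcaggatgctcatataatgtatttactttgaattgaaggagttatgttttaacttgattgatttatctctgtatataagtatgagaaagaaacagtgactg
UGT2B11: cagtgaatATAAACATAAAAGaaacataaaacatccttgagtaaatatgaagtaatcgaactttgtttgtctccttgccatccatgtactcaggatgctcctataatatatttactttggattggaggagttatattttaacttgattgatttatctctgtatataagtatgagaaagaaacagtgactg

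The run began 176 bases before the start of UGT2B7, 178 before that of UGT2B10 and 182 before that of UGT2B11. On either strand it was found in the 250 bases before the start for 3 of 35116 RefSeq promoters, which is 0.00854%, and those 3 belonged to these 3 genes. Its presence in these 3 was fixed by the choice of a run that they share. Over the 250 bases upstream, UGT2B10 and UGT2B11 were identical at 93.1% of aligned bases, UGT2B7 and UGT2B10 at 72.0% and UGT2B7 and UGT2B11 at 73.0%. The run is a match of letters between related genes and is no evidence of a bound factor.

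UGT2B10, whose enzyme glucuronidates tertiary amines such as nicotine, was at 12.8, 15.4, 13.5 and 12.16 CPM in mock 1 to 4 and at 5.94, 12.14, 6.40 and 9.12 CPM in EDN1 1 to 4. All 4 EDN1 libraries lay below all 4 mock libraries, although EDN1 2 lay just under mock 4. It was the 1 tested member of 34 whose groups did not overlap, against 2.04% of all genes tested, 0.668% with lower EDN1 values. The log2 fold change was -0.69 (SE 0.24, 95% interval -1.22 to -0.15, unadjusted p = 0.0173 and Benjamini-Hochberg adjusted p = 0.9999 in edgeR). In the first library set it was -0.63 and in the second -0.66, and between -0.92 and -0.55 on leaving out 1 library. With scaling by library totals alone the groups overlapped, with EDN1 2 at 12.5 CPM and mock 4 at 11.8 CPM.

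UGT2B7, the main liver enzyme for glucuronidation of morphine and many carboxylic acid drugs, was at 19.3, 13.0, 15.8 and 12.7 CPM in mock and at 10.9, 11.2, 13.6 and 9.35 CPM in the EDN1 libraries. The groups overlapped because EDN1 3 lay above mock 2 and mock 4. Its log2 fold change was -0.43 (SE 0.20, unadjusted p = 0.0569 in edgeR), with -0.54 in the first set and -0.15 in the second. UGT2B11, a close relative of UGT2B10, was at 2.34, 1.36, 2.20 and 2.21 CPM in mock and at 1.14, 2.16, 0.877 and 1.27 CPM in the EDN1 libraries. Mock 2 and EDN1 2 stood away from the rest of their groups, and the log2 fold change was -0.60 (SE 0.35), -0.30 in the first set and -1.06 in the second.

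UGT2A3, which conjugates bile acids, was at 4.76, 6.55, 3.59 and 4.28 CPM in mock and at 1.71, 3.74, 2.37 and 6.93 CPM in the EDN1 libraries. EDN1 4 held the highest value of all 8 libraries, and EDN1 1 and EDN1 3 the lowest. The log2 fold change of -0.40 (SE 0.41) became -0.89 in the first set and 0.10 in the second. UGT2B4, another bile acid enzyme of the same cluster, was not detected by the rule: its counts were 11, 7, 7 and 14 in mock and 6, 0, 6 and 3 in EDN1 overexpression. Every EDN1 library was below every mock library, with at most 14 counts in any library and no test. Among the genes tested, 0.668% had this order, and the share among genes with so few counts was not computed. SULT1C4, outside this cluster and also not detected, had the same order in CPM. None of the last 300 transcript bases of UGT2B7, UGT2B10, UGT2B11 or UGT2A3 shared a 50-base stretch with another gene. Of the last 300 bases of UGT2B28, which was not detected, 34.7% of 50-base stretches occur in UGT2B11 transcripts. UGT2B10 and UGT2A3 each stood on 2 rows, which were summed.

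The row named UGT1A3 has to be read as the UGT1A locus. Its 9 genes, among them the bilirubin enzyme gene UGT1A1, each have a first exon of their own, joined to exons 2 to 5 of the locus. Those exons were identical to the ones of UGT1A1 for 5 of the 9 genes, itself included, and differed slightly in length for the other 4 (1479 to 1489 bases against 1478). In the deposited table the length given for UGT1A3 was 2345 bases, near its first exon of 886 bases plus its other exons of 1478 bases in GENCODE 29, whereas the rows of UGT1A5, UGT1A7 and UGT1A8 had lengths of 867, 855 and 918 bases, those of their first exons. The letters around the junction show why a read from the transcript end cannot be assigned to 1 gene: the last 20 bases of the first exon are in lower case and the first 20 shared bases in capitals, from GENCODE 29.
UGT1A1: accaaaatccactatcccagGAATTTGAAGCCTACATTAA
UGT1A3: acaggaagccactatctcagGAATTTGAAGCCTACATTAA
UGT1A6: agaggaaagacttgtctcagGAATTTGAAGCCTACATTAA
UGT1A7: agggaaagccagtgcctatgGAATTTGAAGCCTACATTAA

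The kit reads tags near the ends of polyadenylated transcripts, which here lie in the shared exons. UGT1A4, UGT1A5, UGT1A6, UGT1A7 and UGT1A9 had 0 counts in all 8 libraries, UGT1A1 at most 2, and UGT1A8 and UGT1A10 at most 1. With tags from the shared exons falling in another row, these zeros say nothing about which UGT1A gene was expressed.

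**Figure D2:**
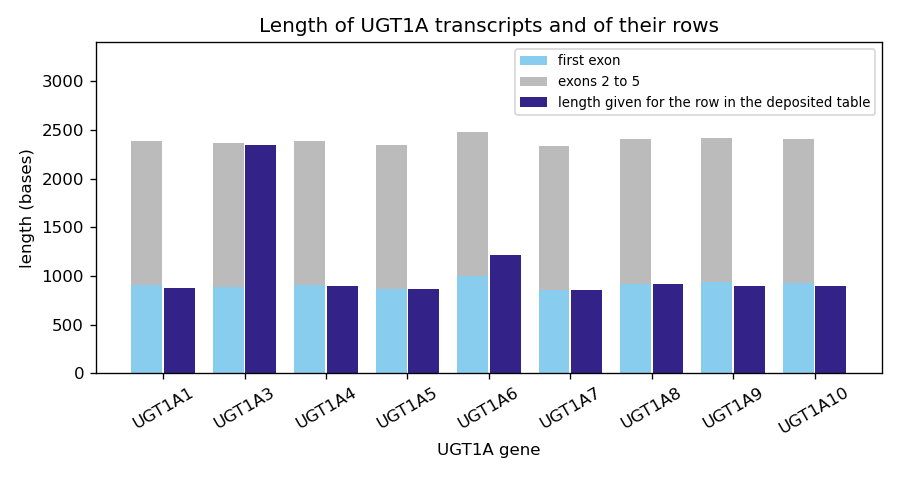
Length in bases (vertical axis) of the first exon (light blue) and exons 2 to 5 (grey) of each UGT1A transcript in GENCODE 29, beside the length given for that gene's row in the deposited table (dark blue). Only the UGT1A3 row, at 2345 bases, is as long as a whole transcript. The UGT1A6 row, at 1213 bases, is longer than its first exon.

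The UGT1A3 row was at 9.21, 14.8, 5.80 and 8.50 CPM in mock and at 3.99, 9.53, 2.89 and 13.6 CPM in the EDN1 libraries. EDN1 1 and EDN1 3 were the lowest of the 8 libraries and mock 2 and EDN1 4 the highest. Its log2 fold change between groups was -0.36 (SE 0.46, 95% interval -1.39 to 0.66), with -0.82 without EDN1 4 and -0.09 without mock 2, and with -0.57 in the first set and -0.06 in the second. The UGT rows together held 24.2 to 41.0 CPM in EDN1 libraries and 41.5 to 52.5 CPM in mock libraries, ranges that do not overlap. Scaled by library totals alone they were at 25.5 to 40.7 CPM in EDN1 libraries and 40.2 to 51.2 CPM in mock, ranges that do. The sums of the other families included overlapping ones. The GST rows held 640.3 to 805.1 CPM in EDN1 libraries and 588.2 to 747.1 CPM in mock. The P450 rows held 220.2 to 319.3 CPM in EDN1 libraries and 235.2 to 286.0 CPM in mock. No sum was tested, and the share of other gene lists whose sums separate was not computed.

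Among the P450s that oxidise drugs and other foreign compounds, 3 of 18 were detected. CYP1A1, which oxidises polycyclic aromatic hydrocarbons and is known as a target of the aryl hydrocarbon receptor, was at 1.17, 11.1, 1.97 and 5.80 CPM in mock and at 3.25, 4.31, 2.89 and 18.8 CPM in the EDN1 libraries. Mock 2 and EDN1 4 were the highest of their groups, and the 8 libraries differed 16.1-fold from lowest to highest, the widest range of the 36 detected members. For CYP1A1 the log2 fold change was 0.55 (SE 0.75, 95% interval -1.12 to 2.21), -0.51 without EDN1 4 and 1.25 without mock 2, with -0.29 in the first set and 0.88 in the second. AHR itself, the receptor gene, was at 14.0 to 19.6 CPM in mock and 12.7 to 32.5 CPM in the EDN1 libraries, with its highest value also in EDN1 4. The receptor's repressor AHRR was not detected, and its highest value, 1.39 CPM, was in EDN1 4 as well. CYP1A2 and CYP1B1, of the same P450 family as CYP1A1, each had 1 count in EDN1 4, and CYP1A2 had 5 in EDN1 1. Whether these values are linked was not tested.

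The bases before the CYP1A1 start, chr15:74725529-74725778 on the minus strand of GRCh38.p14 (RefSeq), are shown because the GCGTG core of the element that this receptor is known to bind occurs there.
CYP1A1: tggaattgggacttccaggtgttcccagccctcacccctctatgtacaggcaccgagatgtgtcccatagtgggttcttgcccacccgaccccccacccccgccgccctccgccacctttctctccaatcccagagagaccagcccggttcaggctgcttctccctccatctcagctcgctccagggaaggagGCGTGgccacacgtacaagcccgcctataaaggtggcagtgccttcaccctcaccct

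Capitals mark the 1 match of GCGTG or its reverse complement CACGC in these 250 bases, 57 bases before the start. For all promoters the letters were counted in a wider window, the 250 bases before the start and the 50 bases after it. There they occur in 36.5% of all 35116 promoters and in 10 of 39 promoters of the 30 detected members matched in RefSeq. The matches of UGT1A3, SULT2A1 and CYP4V2 among these 10 lie after the start. Shares for the 250 bases alone are not given. Other members, such as CYP20A1 and CYP2W1, have a match before the start, so the match by itself does not set CYP1A1 apart.

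CYP3A5, a drug-oxidising relative of CYP3A4, was at 1.56, 1.85, 1.39 and 2.35 CPM in mock and 1.22, 1.59, 2.11 and 1.62 CPM in the EDN1 libraries, with overlapping groups and a log2 fold change of -0.14 (SE 0.30). Of its last 300 bases, 19.9% of 50-base stretches also occur in CYP3A4. CYP3A7, the fetal liver form, had 2, 6, 14 and 11 counts in mock and 14, 6, 4 and 10 in EDN1 overexpression, just enough to be called detected and too few to be tested. Just outside the rule was CYP2B6, with 10 or more counts in 1 library and at most 18. CYP3A4, the main drug oxidase of adult liver, had at most 2 counts in any library, CYP1A2 at most 5, CYP2E1 at most 4, CYP2D6 at most 6, CYP2C19 at most 1, and CYP3A43, CYP1B1 and CYP2F1 at most 4, 1 and 1. CYP2A6, CYP2A7, CYP2A13, CYP2C8 and CYP2C18 had 0 in all 8.

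**Figure D3:**
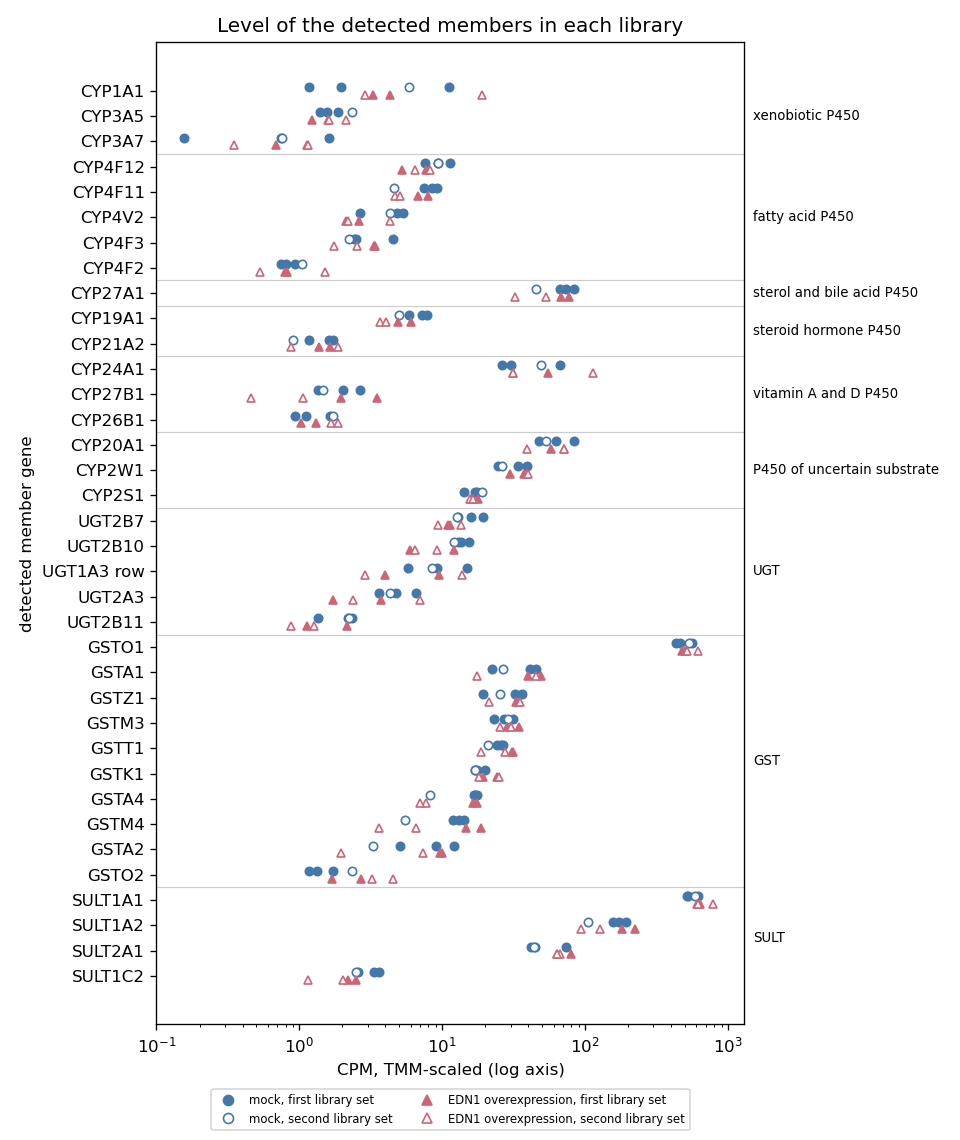
CPM on a log axis (horizontal) of the 36 detected members in each library, by role, with circles for mock and triangles for EDN1 overexpression, and open symbols for the second library set (mock 4, EDN1 3 and EDN1 4). The groups overlap in every row except UGT2B10, and the open symbols lie to the left of the filled ones for GSTA4, GSTM4, SULT1A2, CYP4F11 and CYP27A1.

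Of the P450s that hydroxylate fatty acids and related lipids, 5 of 12 were detected, all of the CYP4 family, and the 4 tested all had negative log2 fold changes. CYP4V2, which hydroxylates medium-chain fatty acids and is mutated in a retinal dystrophy, was at 2.65, 4.82, 5.33 and 4.28 CPM in mock and 2.12, 2.61, 2.19 and 4.27 CPM in the EDN1 libraries. Mock 1 was the 1 mock library within the EDN1 range, whose upper end, EDN1 4, lay just below mock 4. The log2 fold change was -0.61 (SE 0.32, unadjusted p = 0.0842 in edgeR), -0.84 in the first set and -0.43 in the second. CYP4F12, a hydroxylase of fatty acids and of some antihistamines, was at 9.37, 7.54, 11.2 and 9.26 CPM in mock and 5.21, 7.71, 6.40 and 8.20 CPM in the EDN1 libraries. Mock 2 was the 1 mock library within the EDN1 range, and the log2 fold change was -0.45 (SE 0.21, unadjusted p = 0.0623 in edgeR), with -0.55 in the first set and -0.36 in the second.

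CYP4F11, an omega-hydroxylase of long-chain fatty acids, was at 7.49, 8.52, 9.16 and 4.56 CPM in mock and 6.75, 7.94, 4.65 and 5.08 CPM in the EDN1 libraries. The 3 lowest values were those of the second library set, whose mean over that of the first was -0.74 on the log2 scale, and the log2 fold change between groups was -0.28 (SE 0.27). CYP4F3, which inactivates leukotriene B4, differed by -0.06 (SE 0.33) in log2 fold change, with mock 3 at 4.52 CPM and the other 7 libraries between 1.75 and 3.40 CPM. CYP4F2, which acts on leukotriene B4 and vitamin K, had 6 to 15 counts per library and was not tested. CYP2J2 and CYP2U1 had at most 9 and 8 counts, CYP4A11, CYP4B1 and CYP4F22 at most 1, and CYP4A22 and CYP4F8 had 0.

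Of the P450s of bile acid and sterol breakdown, CYP27A1 was the 1 of 6 detected. This mitochondrial sterol 27-hydroxylase was at 73.6, 66.3, 83.8 and 45.1 CPM in mock and 67.8, 76.9, 32.4 and 53.2 CPM in the EDN1 libraries. The 3 libraries of the second set were the 3 lowest, at a mean of 43.6 CPM against 73.7 CPM in the first, and the log2 fold change between groups of -0.22 (SE 0.27) became -0.04 in the first set and -0.09 in the second. CYP7A1, the rate-limiting enzyme of bile acid synthesis, had 0 counts in all 8 libraries, as did CYP46A1, the brain cholesterol 24-hydroxylase. CYP8B1, the sterol 12-alpha-hydroxylase, reached 10 counts in 1 library and was not detected, and CYP39A1 and CYP7B1 had at most 4 and 1.

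Of the P450s of steroid hormone synthesis, 2 of 6 were detected. CYP19A1, aromatase, which makes oestrogens from androgens, was at 7.80, 5.81, 7.19 and 4.98 CPM in mock and 4.88, 6.01, 3.68 and 4.04 CPM in the EDN1 libraries. EDN1 2 was the 1 EDN1 library above the lower end of the mock range, and the log2 fold change was -0.47 (SE 0.24, unadjusted p = 0.0814 in edgeR), with -0.36 in the first set and -0.38 in the second. CYP21A2, the steroid 21-hydroxylase, was at 1.17, 1.73, 1.62 and 0.898 CPM in mock and 1.63, 1.36, 0.877 and 1.85 CPM in the EDN1 libraries. It had 10 to 20 counts per library, summed over 6 rows of the symbol. The pseudogene CYP21A1P, left out by the rule, had 7 to 22 counts, also over 6 rows. CYP21A2 had a log2 fold change of 0.10 (SE 0.35), 0.01 in the first set and 0.56 in the second. Its 3' end overlaps exons of TNXB on the opposite strand, and without knowing how strand was used the reads of the pair cannot be told apart. CYP11A1 and CYP17A1 had at most 5 and 2 counts, and CYP11B1 and CYP11B2, the cortisol and aldosterone enzymes of the adrenal cortex, had 0.

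The P450s that act on vitamins A and D were detected in 3 of 7 cases. CYP24A1, the mitochondrial enzyme that degrades active vitamin D, was at 30.1, 66.6, 26.1 and 48.7 CPM in mock and 31.2, 55.2, 31.1 and 113.7 CPM in the EDN1 libraries. EDN1 4 stood far above the others and mock 2 was the highest of its group, as for CYP1A1. The log2 fold change of 0.43 (SE 0.44) was -0.13 without EDN1 4 and 0.72 without mock 2, and 0.08 in the first set and 0.56 in the second. CYP27B1, which makes active vitamin D, was at 2.03, 1.36, 2.67 and 1.45 CPM in mock and 1.95, 3.52, 1.05 and 0.462 CPM in the EDN1 libraries, with the highest and the lowest value both in EDN1 libraries. Its log2 fold change was -0.10 (SE 0.51), 0.41 in the first set and -0.91 in the second. VDR, the vitamin D receptor gene, was not detected.

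CYP26B1, which breaks down retinoic acid, was at 1.64, 1.11, 0.927 and 1.73 CPM in mock and 1.30, 1.02, 1.67 and 1.85 CPM in the EDN1 libraries. It was the 1 member whose 3 libraries of the second set all lay above the first, against 9.83% of all genes tested, and its log2 fold change between groups was 0.08 (SE 0.33). CYP2R1, the vitamin D 25-hydroxylase, reached 10 counts in 2 libraries and was not detected. CYP26A1 and CYP27C1 had at most 2 and 3 counts, and CYP26C1 had 0.

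Of the 5 P450s of uncertain substrate, 3 were detected, while CYP4Z1 and CYP4X1 had at most 2 and 1 counts. CYP2S1, CYP2W1 and CYP20A1 had log2 fold changes of -0.04 (SE 0.16), 0.24 (SE 0.19) and -0.05 (SE 0.23), and the 95% interval of each lay within 2-fold. CYP2W1, an enzyme known from fetal gut and colorectal tumours, was at 39.2, 33.8, 24.5 and 26.3 CPM in mock and 37.3, 29.7, 38.9 and 40.0 CPM in the EDN1 libraries, a log2 fold change of 0.04 in the first set and 0.58 in the second. CYP2S1 was at 16.9, 17.5, 14.1 and 18.9 CPM in mock and 17.7, 15.8, 15.5 and 16.5 CPM in the EDN1 libraries, a 1.33-fold range that was the smallest of the 36 detected members. CYP20A1, an orphan enzyme, was at 83.8, 47.6, 62.0 and 53.1 CPM in mock and 71.3, 57.3, 71.1 and 38.9 CPM in the EDN1 libraries, and its groups overlapped throughout.

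The glutathione transferases were detected in 10 of 17 cases. GSTO1, an omega-class enzyme that reduces dehydroascorbate and methylated arsenic, was at 461, 431, 558 and 532 CPM in mock and 479, 501, 619 and 516 CPM in the EDN1 libraries. Divided by row length it had the highest level of the members, 391 CPM per kilobase, although length is a poor guide in a kit that counts transcript ends. Its groups overlapped and the log2 fold change was 0.09 (SE 0.15, 95% interval -0.24 to 0.43). Its neighbour on chromosome 10, GSTO2, was at 1.33, 1.73, 1.16 and 2.35 CPM in mock and 2.68, 1.70, 3.25 and 4.50 CPM in the EDN1 libraries.

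For GSTO2, 3 EDN1 libraries lay above all mock libraries and EDN1 2 lay among them. Its log2 fold change was 0.86 (SE 0.36, 95% interval 0.07 to 1.66, unadjusted p = 0.0361 and Benjamini-Hochberg adjusted p = 0.9999 in edgeR), on counts of 10 to 39 per library. It was 0.66 in the first set and 0.70 in the second, and 0.62 to 1.11 on leaving out 1 library. Its second-set mean was higher by 0.97 on the log2 scale than its first-set mean.

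GSTK1, a mitochondrial and peroxisomal enzyme, was at 17.0, 19.9, 17.4 and 17.0 CPM in mock and 24.3, 19.4, 25.1 and 18.1 CPM in the EDN1 libraries. Mock 2 was the 1 mock library within the EDN1 range, and the log2 fold change was 0.29 (SE 0.16, unadjusted p = 0.108 in edgeR). GSTA1, the main alpha-class enzyme of hepatocytes, was at 45.2, 22.2, 41.2 and 26.7 CPM in mock and 48.7, 40.0, 45.0 and 17.6 CPM in the EDN1 libraries, with the lowest value in EDN1 4 and a log2 fold change of 0.16 (SE 0.32). Of its last 300 bases, 30.3% of 50-base stretches recur in GSTA2 or GSTA5, so reads may be split between these genes. GSTZ1, maleylacetoacetate isomerase of tyrosine breakdown, was at 32.3, 19.3, 36.2 and 25.4 CPM in mock and 33.6, 32.8, 35.1 and 21.3 CPM in the EDN1 libraries, and its log2 fold change was 0.12 (SE 0.23).

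GSTM3, GSTT1, GSTA2, GSTM4 and GSTA4 had log2 fold changes of 0.10, 0.16, -0.02, -0.03 and -0.29, each with overlapping groups. GSTA4, which detoxifies hydroxynonenal, was at 16.5 to 17.5 CPM in all 5 libraries of the first set and at 6.93 to 8.22 CPM in the 3 of the second. GSTM4, a mu-class enzyme, was likewise at 11.9 to 18.6 CPM in the first set and 3.58 to 6.58 CPM in the second. GSTP1, the pi-class enzyme, had at most 7 counts in any library. GSTM1, with 10 or more counts in 2 libraries, GSTT2B in 1, and GSTM2, GSTA5, GSTA3 and GSTM5, with at most 8, 8, 1 and 1 counts, were not detected, and GSTM1, GSTM2 and GSTT2B share every 50-base stretch of their last 300 bases with other transcripts, those of GSTT2 for GSTT2B.

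**Figure D4:**
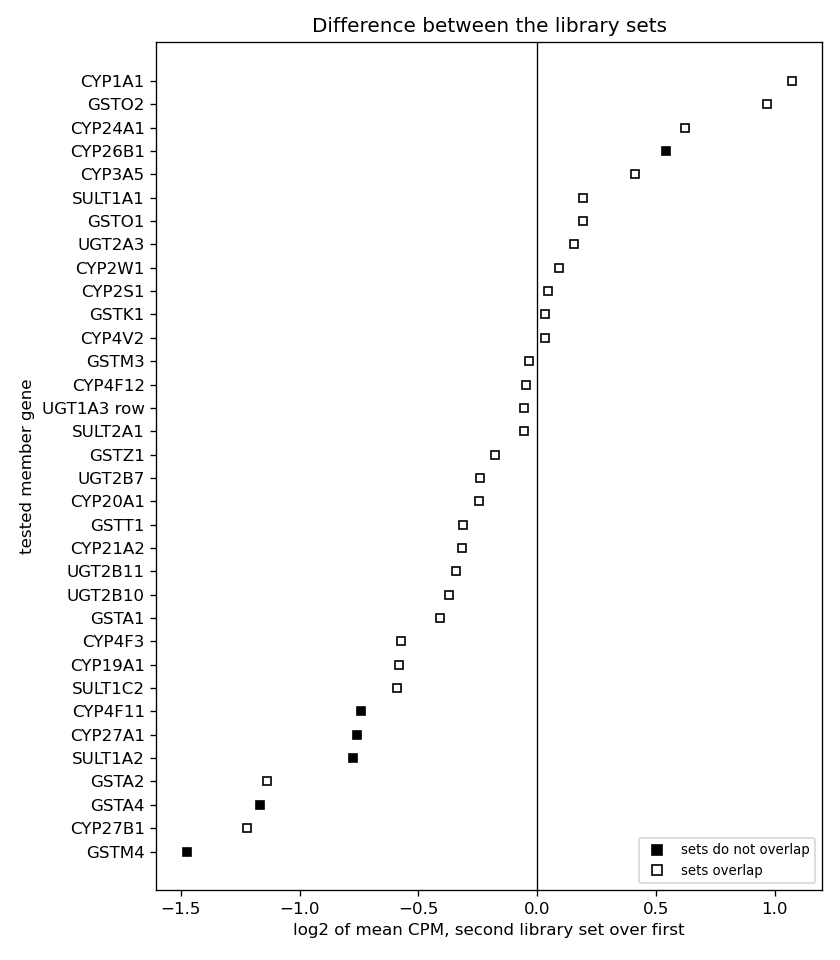
Log2 of the mean CPM of the second library set over that of the first (horizontal axis) for the 34 tested members, with filled squares where the sets do not overlap. GSTM4, at -1.48, is the lowest of the 5 members whose second set lies wholly below the first, and CYP26B1, at 0.54, is the 1 wholly above.

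Between the library sets, 5 members (GSTA4, GSTM4, SULT1A2, CYP4F11 and CYP27A1) were lower in every library of the second set than in any of the first, against 13.4% of all genes tested. With CYP26B1, the sets did not overlap for 6 of the 34, against 23.2%. The sets hold 3 mock and 2 EDN1 libraries in the first and 1 mock and 2 EDN1 libraries in the second, so the groups are unequally spread over them. With the library set as a term, the log2 fold changes of GSTA4, GSTM4, SULT1A2, CYP4F11 and CYP27A1 between groups were -0.07, 0.21, 0.17, -0.09 and -0.06. For UGT2B10 and GSTO2 they were -0.64 and 0.68, near the values without the term.

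The sulphotransferases were detected in 4 of 13 cases. SULT1A1, the main phenol sulphotransferase of liver, was at 525, 611, 517 and 589 CPM in mock and 607, 631, 613 and 781 CPM in the EDN1 libraries. Mock 2 lay just above EDN1 1, so the groups overlapped by that pair, and the log2 fold change was 0.23 (SE 0.15, 95% interval -0.09 to 0.55, unadjusted p = 0.142 in edgeR). With scaling by library totals alone the groups did not overlap, with mock at 510.2 to 588.6 CPM and EDN1 at 624.4 to 740.3 CPM. SULT1A1 was picked by name for this scaling. The share of all genes whose groups did not overlap under it was not computed. Of its last 300 bases, 26.7% of 50-base stretches occur in another gene.

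SULT2A1, which sulphates DHEA and bile acids, was at 73.4, 41.8, 44.4 and 43.9 CPM in mock and 79.7, 63.5, 67.1 and 63.7 CPM in the EDN1 libraries. The 4 EDN1 libraries lay above 3 mock libraries, and mock 1 lay above 3 EDN1 libraries. The SULT2A1 log2 fold change was 0.43 (SE 0.20, 95% interval -0.01 to 0.87, unadjusted p = 0.0550 in edgeR), 0.43 in the first set and 0.57 in the second, and 0.35 to 0.66 on leaving out 1 library. SULT1A2, a close relative of SULT1A1, was at 172, 155.5, 192.6 and 104 CPM in mock and 182, 222, 127 and 93.2 CPM in the EDN1 libraries. Its group means were nearly the same, 156.1 and 156.2 CPM, while the second set lay wholly below the first, by -0.77 on the log2 scale.

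**Figure D5:**
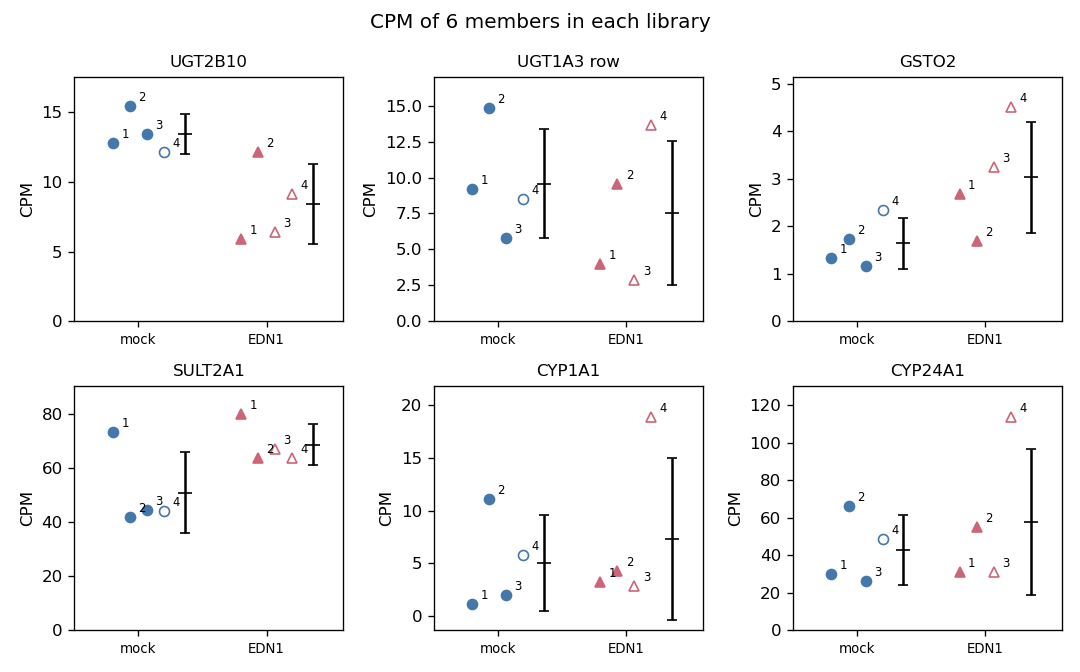
CPM (vertical axis) of UGT2B10, the UGT1A3 row, GSTO2, SULT2A1, CYP1A1 and CYP24A1 in each library, numbered by replicate, with circles for mock, triangles for EDN1 overexpression, open symbols for the second library set and bars for mean ± SD (n = 4). The groups separate for UGT2B10 only, and EDN1 4 is the highest of the 8 libraries for GSTO2, CYP1A1 and CYP24A1.

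SULT1C2, a sulphotransferase of fetal liver, kidney and stomach, was at 2.58, 3.34, 3.59 and 2.49 CPM in mock and 2.20, 2.50, 2.02 and 1.16 CPM in the EDN1 libraries. Only EDN1 2 reached the mock range, by its edge, and the log2 fold change was -0.59 (SE 0.30, unadjusted p = 0.0756 in edgeR). SULT1C4, a fetal form, had 3, 2, 4 and 9 counts in mock and 2, 2, 1 and 1 in EDN1 overexpression, at or under 4 counts outside mock 4, so no fold is given. SULT1B1, SULT1E1, SULT4A1, SULT2B1 and SULT6B1 had at most 5, 3, 2, 1 and 1 counts and SULT1C3 had 0.

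SULT1A3 and SULT1A4, the dopamine sulphotransferase and its copy, had 0 counts on rows of 100 and 200 bases. All 251 stretches of 50 bases in the last 300 bases of SULT1A3 also belong to the read-through transcript SLX1A-SULT1A3, whose row of 4432 bases held 1815 to 4498 counts per library. That row was at 302 ± 59.6 CPM in mock and 306 ± 74.7 CPM in the EDN1 libraries (mean ± SD, n = 4), a log2 fold change of 0.02 (SE 0.21). Whether those reads came from SULT1A3, SULT1A4 or the read-through cannot be told apart, and their zeros are not evidence of absence.

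Summed over members, the SULT rows held 740.5 to 812.5 CPM in mock and 810.1 to 939.4 CPM in the EDN1 libraries, overlapping by mock 2 and EDN1 3, and 717.7 to 794.9 and 824.8 to 946.5 CPM when scaled by library totals alone, which did not overlap. On that scale all members together made up 1637 to 1810 CPM in mock and 1840 to 2000 CPM in the EDN1 libraries. The SULT rows held 41.9 to 48.4% of these member counts, the GST rows 33.0 to 43.2%, the P450 rows 11.8 to 16.5% and the UGT rows 1.31 to 3.02%. The sums are dominated by SULT1A1 and GSTO1 and are given as descriptions with no test. They leave out the SLX1A-SULT1A3 row, at 209.6 to 368.1 CPM per library, which may hold reads of SULT1A3 and SULT1A4. Sums and shares with that row added were not computed, so any separation of the groups holds only for the rows summed.

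The UGT rows whose counts are not given above were UGT2B28, UGT2A1 and UGT2B17, with at most 6, 2 and 1 counts, and UGT2A2 and UGT2B15, with 0. UGT2B17 and UGT2B15, enzymes of androgen glucuronidation, were thus at or under the limit of 3 counts in every library. In all, 67 of the 103 members were not detected, and 22 of these had 0 counts in all 8 libraries. The zeros of SULT1A3, SULT1A4, UGT1A4, UGT1A5, UGT1A6, UGT1A7 and UGT1A9 are among them and, as described above, are not evidence of absence. The same limit holds for UGT1A1, UGT1A8 and UGT1A10, which were not detected.

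The partners of these enzymes were read from lists of electron donors and haem supply, regulators, other oxidation enzymes, other conjugation enzymes with cofactor supply, and transporters. Of 139 genes, 107 were tested, and edgeR, DESeq2 and limma voom called 0 of them, with 0 at an unadjusted p under 0.05 in edgeR, against 2.85% of all genes tested. Log2 fold changes were positive for 50 and negative for 57, with a median of -0.02. The electron donor and haem list had 15 positive and 3 negative values, the regulators 10 and 15, other oxidation 5 and 13, other conjugation 15 and 13, and transporters 5 and 13. Negative values within the first and the second library set numbered 4 and 9 for electron donors and haem and 12 and 19 for regulators. They numbered 8 and 10 for other oxidation, 11 and 17 for other conjugation, and 12 and 9 for transporters. None of these lists was tested as a list.

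POR, the reductase that serves the microsomal P450s, was at 201, 260.0, 241 and 97.4 CPM in mock and 191, 230, 65.3 and 101 CPM in the EDN1 libraries. All 3 libraries of the second set were lower than all 5 of the first, by -1.35 on the log2 scale, and the log2 fold change between groups of -0.45 (SE 0.40) was -0.15 in the first set and -0.24 in the second. UGDH, which makes the glucuronic acid donor of the UGTs, was at 1278, 1700, 1403 and 921 CPM in mock and 1270, 1381, 724 and 954 CPM in the EDN1 libraries, again with the second set lowest and a log2 fold change of -0.29 (SE 0.24). PAPSS1, which makes the sulphate donor of the SULTs, was at 34.7 to 57.6 CPM in mock and 42.2 to 46.3 CPM in the EDN1 libraries (log2 fold change -0.04, SE 0.17).

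GCLC, the catalytic subunit of glutathione synthesis, was at 83.0, 114.6, 89.9 and 102 CPM in mock and 53.5, 82.8, 58.1 and 105 CPM in the EDN1 libraries. EDN1 1 and EDN1 3 were again the 2 lowest, as for the UGT1A3 row and UGT2B10, and the log2 fold change was -0.38 (SE 0.22, unadjusted p = 0.111 in edgeR). Among regulators, NFE2L2, the oxidative stress factor known to act on GST genes, had group means of 216 ± 53.3 and 164 ± 34.3 CPM (mean ± SD, n = 4, log2 fold change -0.40, SE 0.21). The pregnane X receptor gene NR1I2 was at 3.55 ± 0.479 and 2.93 ± 0.649 CPM, and HNF4A, the hepatocyte factor, at 158 ± 20.5 and 169 ± 14.6 CPM, each with overlapping groups. TPMT, which methylates thiopurine drugs, was the 1 partner whose EDN1 libraries (15.94 to 17.6 CPM) lay wholly above mock (12.6 to 15.88 CPM), against 1.38% of all genes tested, and its log2 fold change was 0.21 (SE 0.15, unadjusted p = 0.198 in edgeR).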

How the data were processed

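Lexogen QuantSeq libraries were made from 4 mock and 4 EDN1 overexpression samples, per the labels' protocols. The authors deposited 1 table of read counts, a column per library, with a length for each gene row. Per the submitters' processing notes, Bowtie2, edgeR and hg19 were used. How reads were assigned to genes, and whether by strand, is not given in the sources used here. Rows of 1 symbol were summed, leaving 24462 genes of 25737 rows.

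Groups came from the sample titles. The 12577 genes left by filterByExpr (minimum count 10) were scaled by TMM. Their counts were tested by quasi-likelihood in edgeR 4.0.16 under R 4.3.3 with group alone in the model, and p-values were adjusted by Benjamini-Hochberg over all of them (threshold 0.05). SEs were derived from the fold change and its F statistic. CPM values use TMM-scaled library sizes unless library totals are named. The test was also run on simulated counts. These were drawn independently for each library with no library sets, so that run does not cover the difference between the sets. No pair of libraries agreed within sampling noise (chi-square per degree of freedom 6.49 to 92.7).

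Alternatives were other scalings and filters, DESeq2 1.42.0, limma voom (limma 3.58.1), the replicate number as a block, the library sets, unsummed rows, other thresholds and leaving out each library. Every member is named as detected or not, except 1 that is not reported here. Values in each library are given for the detected members of each role with the highest CPM (up to 3) and the smallest p (up to 2), and for members whose groups do not overlap. UGT2A3, UGT2B11, CYP4F3, GSTA4, GSTM4, AFP and the partners named were added after their values were seen, except where groups did not overlap. POR, AHR, NR1I2, HNF4A and NFE2L2 are exceptions among the partners, as the plan named them. Members and lists were chosen with earlier results of these data known. Sequences are from RefSeq (GRCh38.p14) and GENCODE 29, matched by symbol. GENCODE 29 matched 102 of the 103 members, and the 50-base stretches were compared with all of its transcripts.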

Additional observations from a re-analysis of the deposited data

Results flagged for a closer look

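In 72 groups of 4 libraries (36 detected members in each condition), the highest or lowest library was set against the nearest other library. In 8 groups that gap was more than 0.829 of the group's range. For independent draws from 1 normal distribution about 1 in 20 groups would pass. The groups here share the same libraries, which fall into the library sets, so their number cannot be judged against that rate. EDN1 4 was the highest of its group for CYP1A1 at 18.8 CPM, with the other 3 between 2.89 and 4.31, and for SULT1A1 at 780.8 CPM, with the others between 606.7 and 631.3. It was the lowest for GSTZ1 at 21.3 CPM, with the others between 32.8 and 35.1. Mock 4 was the lowest for GSTA4 at 8.22 CPM, with the others between 16.8 and 17.5. Mock 2 was the highest for GSTK1 at 19.9 CPM, with the others between 17.0 and 17.4, and the lowest for UGT2B11 at 1.36 CPM, with the others between 2.20 and 2.34. Mock 1 was the highest for SULT2A1 at 73.4 CPM, with the others between 41.8 and 44.4, and mock 3 for CYP4F3 at 4.52 CPM, with the others between 2.21 and 2.47.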

How the results depend on the processing

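No member was called under any of the 22 other settings, where the smallest adjusted p of a member was 0.8089 (edgeR, Benjamini-Hochberg, without EDN1 4). The log2 fold change of EDN1 ran from 7.65 to 8.23 on leaving out 1 library. Same-numbered libraries correlated in their deviations from the group means at 0.477, 0.151, -0.149 and 0.528, and mock 1 and mock 4 matched their own number best. As 1 of the 4 was under 0.1, the numbers were not taken to pair the libraries. With the replicate block EDN1 was at 7.87 and 0 members were called (smallest adjusted p 0.9544). Of 520 log2 fold changes of the 26 tested members named by the rule under these settings, 489 kept their direction, and 15 members kept it throughout, UGT2B10, UGT2B7, the UGT1A3 row, GSTO2, SULT1A1 and SULT2A1 among them. SULT1A2 turned to -0.0003 with DESeq2 size factors, -0.0009 in DESeq2, -0.0385 in limma voom and -0.0392 with the replicate block. With the library set as a term, CYP20A1 turned to 0.0164, CYP26B1 to -0.0477, CYP27B1 to 0.0034, CYP4F3 to 0.0541, GSTA2 to 0.282 and GSTM4 to 0.2071. In the first set alone, CYP1A1 turned to -0.2939, CYP26B1 to -0.0939, CYP27B1 to 0.4128, CYP2S1 to 0.0485, CYP4F3 to 0.112, GSTA2 to 0.1588 and GSTM4 to 0.3506. In the second set alone, CYP20A1 turned to 0.0409, CYP4F11 to 0.0811, GSTA2 to 0.5095, GSTM3 to -0.0679 and UGT2A3 to 0.0952. The cause was not tested. On leaving out 1 library, values crossed 0 for CYP1A1 (-0.5103 to 1.2464), CYP20A1 (-0.1522 to 0.1396), CYP21A2 (-0.068 to 0.2807), CYP24A1 (-0.1318 to 0.7182), CYP26B1 (-0.052 to 0.2236), CYP27B1 (-0.6498 to 0.1946), CYP2S1 (-0.1173 to 0.0163), CYP3A5 (-0.2972 to 0.0302), GSTZ1 (-0.0261 to 0.2574), SULT1A2 (-0.2167 to 0.1838), CYP4F3 (-0.1787 to 0.2211), GSTA2 (-0.2724 to 0.3426) and GSTM4 (-0.4282 to 0.2591). Positive fold changes numbered 40 of 81 members with no filter on low counts and in DESeq2, against 15 of 34. Fold changes of members with few counts, such as CYP21A2 at 10 to 20 per library, are limited by depth.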
